A study of Mus musculus with 27 samples.

Results

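Cells sorted from the substantia nigra pars compacta (SNc) were compared between postnatal day 60 (P60, adult) and postnatal day 30 (P30, juvenile) in 6 RNA libraries, 3 for P60 (numbered 1, 3 and 4) and 3 for P30 (numbered 1, 2 and 3), of the 27 in the series. They were chosen by the region and age in their labels. All 6 came from brain tissue of C57/BL6 mice with no other allele or treatment named. The tissue was dissociated and cells carrying the dopamine transporter (DAT+) were collected by flow cytometry. RNA was amplified by SMART-seq2, a full-length method for small inputs, and sequenced as 150-base read pairs. The other libraries come from SNc at P7 and from the nucleus accumbens (NAc) and ventral tegmental area (VTA) at P7, P30 and P60, again with 3 libraries per group. The labels do not tie libraries to mice. With 5 mice per age by the design and 9 libraries per age, mice must be shared between libraries. P-values therefore measure only how far these libraries differ, and that spread may be technical. Library titles of an age share a prefix and a code that no other age has. The labels do not say what these stand for. Libraries with the same code are called a pool here, and age and pool cannot be told apart.

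The SNc holds dopaminergic neurons that project to the dorsal striatum and are the cells lost in Parkinson disease. Such neurons take up dopamine through the transporter encoded by Slc6a3, make it with tyrosine hydroxylase (Th) and aromatic amino acid decarboxylase (Ddc), and load it into vesicles with Slc18a2. Around them lie oligodendrocytes, which wrap axons in myelin, a process that continues from the juvenile to the adult brain, as well as microglia, astrocytes and capillaries.

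Values are FPKM rescaled so that every library has the same total of reads in genes, a scale of reads per kilobase, and they are given below in the order of the library numbers. The 6 libraries held 9248048 to 12439041 reads in genes. Genes with a read numbered 17436, 12736 and 17108 in the P60 libraries and 12437, 16294 and 13534 in the P30 libraries, so that P60 library 3 and P30 libraries 1 and 3 were the poorest. Mitochondrial genes took 11.9%, 15.2% and 12.6% of reads at P60 and 14.7%, 7.70% and 14.7% at P30. Rank correlations across genes were 0.694 to 0.802 within P60, 0.689 to 0.736 within P30 and 0.674 to 0.794 between the ages, so pairs of libraries from different ages were about as alike as pairs from the same age. For a gene of 1 kilobase, 3 reads correspond to a value of 0.241 to 0.324. This floor covers counting error only.

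The label of the sorted cells as dopaminergic neurons was set against their markers. Slc6a3 had 1.35, 0.326 and 2.48 at P60 and 0, 0.156 and 0 at P30. Th had 4.34, 0 and 19.9 at P60 and 0, 0 and 1.28 at P30. Slc6a3 was low in every library. Th stood out in P60 library 4 and overlapped between the ages because P60 library 3 had no read. Of the 16 genes of the dopaminergic list, the transcription factors Pitx3, En2, Foxa2 and Lmx1b had no read in any of the 6 libraries, and En1 had a value of 0.194 in P60 library 1 and no read in the others. Among all 18888 genes tested, the median of the 11 dopaminergic genes that passed the filter lay at the 17.9 to 44.9 percentile in P60 libraries and at 18.6 to 33.6 in P30 libraries. Microglial genes were at the other end. C1qa, a subunit of complement C1q made by microglia, had 6167, 3135 and 7861 at P60 and 3562, 7407 and 5284 at P30. Tmem119, a marker of resident microglia, had 2295, 1958 and 1437 at P60 and 2087, 2800 and 1848 at P30. The median of the 16 microglia and macrophage genes lay at the 99.4 to 99.7 percentile at P60 and the 99.6 to 99.8 percentile at P30. The measured RNA thus goes against the label, and the libraries are called sorted SNc libraries here.

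**Figure D1:**
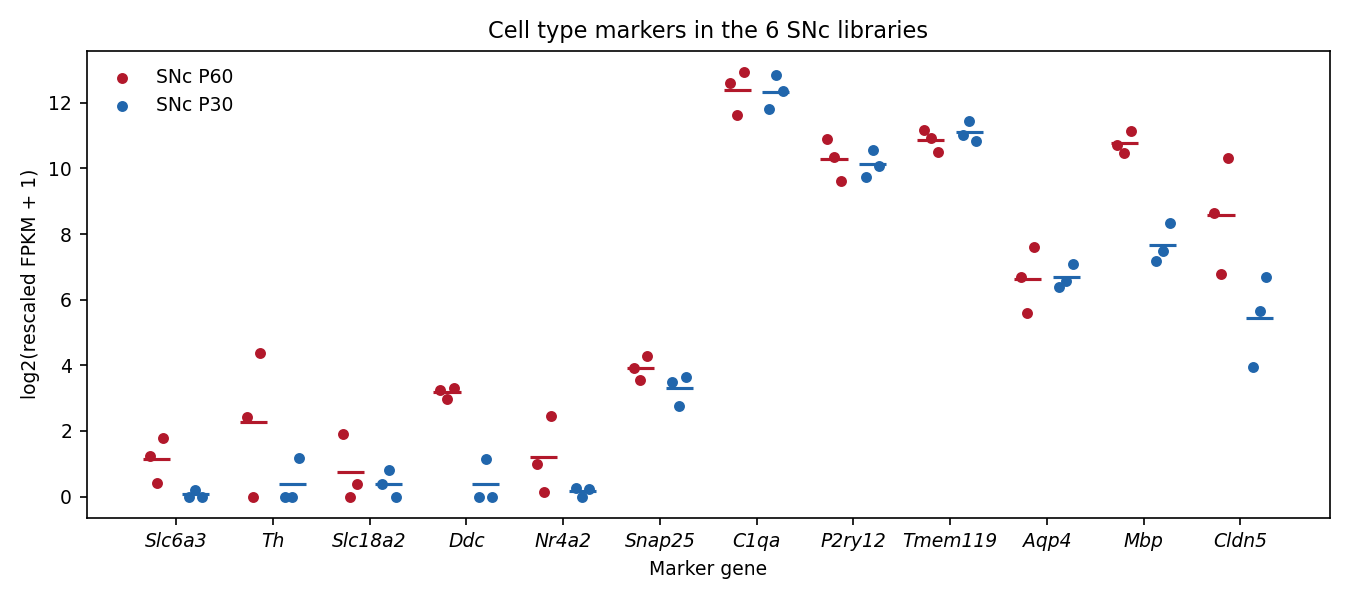
Marker genes in the 6 sorted SNc libraries, on a vertical axis of log2(rescaled FPKM + 1). Each point is a library (red, P60, and blue, P30, 3 each) and each bar the mean of 3 points. Slc6a3 reached at most 2.48 at P60 before the log, while C1qa was at 3135 or more in every library of both ages.

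Between P60 and P30, 14 of 18888 genes passed the threshold (limma on log2(value + 1), Benjamini-Hochberg adjusted p under 0.05), which is 0.0741% of the genes tested. Of these, 9 rose at P60 (0.0476%) and 5 fell (0.0265%). The risers included 3 genes of myelin and of oligodendrocytes, Mbp, Mobp and Bcas1, and the asparagine synthetase Asns, while those that fell were short, predicted or non-coding transcripts. At an unadjusted p under 0.05 there were 1137 genes (6.02%), 722 higher (3.82%) and 415 lower (2.20%). Every P60 library lay above every P30 library in 1107 genes (5.86%) and below every P30 library in 760 genes (4.02%). Single libraries moved these counts: 2 genes rose without P30 library 1 and 15 without P60 library 3, and 16 fell without P30 library 2. Without P60 library 3 and P30 library 1 together, 6 rose and 3 fell. In a fit of the 6 libraries alone 5 genes passed, 4 of them among the 14. The median 95% interval of a gene reached 1.39 log2 units to either side, and the smallest change that passed was 2.48 log2 units, so changes smaller than that were not called with these libraries.

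**Figure D2:**
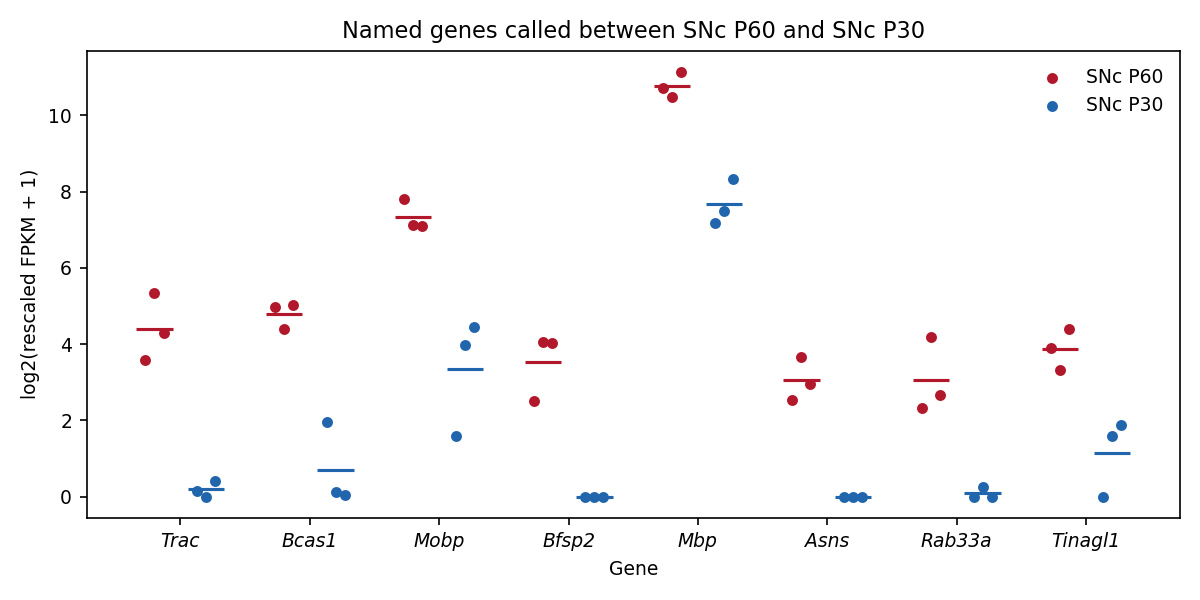
The 8 protein-coding or immune receptor genes that passed the threshold, on a vertical axis of log2(rescaled FPKM + 1). Each point is a library (red, P60, and blue, P30, 3 each) and each bar the mean of 3 points. In every gene the 3 P60 points lie above the 3 P30 points, and Bfsp2 and Asns had no read in the P30 libraries.

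Myelin genes were among the strongest increases. Mbp, myelin basic protein, which compacts the myelin sheath (ENSMUSG00000041607, GRCm38/mm10 chromosome 18, 82475146 to 82585637), had 1670, 1432 and 2252 at P60 and 143, 178 and 323 at P30. Every P60 library was more than 4 times as high as the highest P30 library, and the group means were 1785 ± 422 and 214 ± 95.6 (SD, n = 3 each), a ratio of 8.32. The fitted change was 3.11 ± 0.52 log2 units (SE, limma adjusted p = 0.0115). Without P60 library 4 or P30 library 1 the adjusted p no longer passed, with 0.0879 as the highest value, and it was 0.246 in the fit of the 6 libraries alone.

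Bcas1, whose protein marks oligodendrocytes at the onset of myelination (ENSMUSG00000013523, chromosome 2, 170346991 to 170427845), had 30.4, 19.95 and 31.7 at P60 and 2.89, 0.0859 and 0.0275 at P30. P30 libraries 2 and 3 were close to no reads. The change was 4.09 ± 0.66 log2 units (SE, limma adjusted p = 0.00724). It passed without each library except P30 library 3, where the adjusted p was 0.0547, and did not pass in the fit of the 6 libraries alone (adjusted p = 0.312). Reads from its annotated antisense transcripts cannot be told apart from its own without strand.

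Mobp, which encodes another basic protein of compact myelin (ENSMUSG00000032517, chromosome 9, 120149707 to 120181484), had 222, 140 and 136 at P60 and 2.03, 14.8 and 20.8 at P30. The groups did not overlap, and the ratio of their means was 13.2. The change was 4.00 ± 0.78 log2 units (SE, limma adjusted p = 0.0456), and it passed in 2 of 6 fits that left out a library and not in the fit of the 6 libraries alone (adjusted p = 0.403). The 250 bases before its RefSeq start are shown because they carry repeated copies of the core letters read by SOX factors, the family of the oligodendrocyte regulator Sox10. They lie at chr9:120149492-120149741 on the plus strand (GRCm38.p6), and capitals mark ACAAAG or its reverse complement CTTTGT:
Mobp: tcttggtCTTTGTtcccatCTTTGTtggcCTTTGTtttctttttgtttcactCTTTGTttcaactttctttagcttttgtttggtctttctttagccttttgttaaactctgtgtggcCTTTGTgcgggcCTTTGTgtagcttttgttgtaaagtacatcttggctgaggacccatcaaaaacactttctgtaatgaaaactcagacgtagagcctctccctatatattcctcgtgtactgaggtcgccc
The 6 copies begin between 243 and 120 bases before the start. Of 32851 RefSeq promoter windows of 300 bases (250 before to 50 after the start), 18.7% hold at least 1 match on either strand and 0.00304% hold 6 or more. The latter share includes the Mobp window itself. The windows of the other named called genes with an entry, Asns, Tinagl1, Bfsp2 and Rab33a, held no match. Sox10 itself had 4.43, 10.1 and 7.29 at P60 and 0.421, 0.319 and 3.95 at P30. These groups did not overlap, but the difference of 1.92 ± 0.78 log2 units did not pass (SE, unadjusted p = 0.0219, limma adjusted p = 0.710).

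Of the 16 myelinating oligodendrocyte genes, all of which were tested, Mbp and Mobp passed the threshold and none fell. The median change of the list was 1.43 log2 units, against 0.06 over all genes tested, and 15 of 16 estimates were above 0. Every P60 library lay above every P30 library for 6 of the 16 genes (5.86% of all genes tested), and below for none (4.02%). At an unadjusted limma p under 0.05, none were lower (2.20% of all genes tested) and 5 were higher (3.82%). Beside Mbp and Mobp these were Opalin, Ermn and Aspa. Mag, an adhesion molecule of the inner myelin layer, had 111, 55.1 and 59.6 at P60 and 38.1, 55.0 and 156 at P30, so its groups overlapped (0.05 ± 0.70 log2 units, SE, limma adjusted p = 1.00). The summed value of the list was 2686, 2639 and 2999 at P60 and 553, 664 and 1243 at P30. Without P60 library 3 and P30 library 1 the list median was 0.38. In these bulk libraries, fewer cells of a type and less RNA per cell cannot be told apart.

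The list of oligodendrocyte precursor genes, 12 in all, had 1 member past the threshold, Bcas1, and a median change of 0.37. Of its estimates 7 were above 0 and 5 below. Every P60 library lay above every P30 library for 4 of the 12 genes (5.86% of all genes tested), and below for none (4.02%). At an unadjusted limma p under 0.05, 3 were higher (3.82% of all genes tested) and none lower (2.20%). Pdgfra, the growth factor receptor that defines precursors, had 7.84, 4.99 and 4.22 at P60 and 4.79, 3.38 and 14.1 at P30, with overlap. Olig1, a transcription factor of the lineage, had 36.4, 16.1 and 38.7 at P60 and 48.5, 16.9 and 30.5 at P30, again with overlap.

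Asns, the enzyme that makes asparagine from aspartate (ENSMUSG00000029752, chromosome 6, 7675169 to 7693254), had 4.79, 11.6 and 6.76 at P60, from 129, 394 and 211 reads, and no read in any P30 library. Set against 3 reads in each P30 library, the P60 mean of 7.71 ± 3.49 (SD, n = 3) was at least 65.0-fold higher. It was called at a limma adjusted p of 0.0456, and no fit that left out a library called it (highest adjusted p = 0.171). Its adjusted p was 0.223 in the fit of the 6 libraries alone. At P7 the SNc libraries had a mean of 15.1 ± 3.20 (SD, n = 3). In the other regions at P30, Asns had 11.4, 1.99 and 6.53 in NAc and 0.0991, 0 and 0 in VTA, so libraries without Asns reads were not found in SNc alone. Its promoter is shown because it holds the amino acid response element, through which ATF4 raises transcription when amino acids are short. The 250 bases before the RefSeq start lie at chr6:7693210-7693459 and are printed on the minus strand of GRCm38.p6, with TGATGAAAC in capitals:
Asns: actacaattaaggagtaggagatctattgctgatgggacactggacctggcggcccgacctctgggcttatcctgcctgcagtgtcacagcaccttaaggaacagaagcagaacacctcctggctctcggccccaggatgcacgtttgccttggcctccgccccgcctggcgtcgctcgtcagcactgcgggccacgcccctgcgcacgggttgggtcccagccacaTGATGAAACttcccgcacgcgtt
The match begins 23 bases before the start, and 0.247% of the 32851 windows hold TGATGAAAC or its reverse complement. Of 22 tested genes of the amino acid response, a list chosen after values were seen, Asns alone passed the threshold, and the list median was 0.03 log2 units. Atf4 had 23.6, 21.4 and 50.4 at P60 and 13.9, 25.6 and 16.9 at P30, with overlap. Psat1, a serine synthesis enzyme controlled by ATF4, had 13.7, 21.8 and 9.80 at P60 and 11.04, 12.6 and 3.84 at P30, also with overlap. The cystine transporter Slc7a11 had lower values at P60, with 3.43, 5.43 and 0.856 against 11.1, 10.2 and 9.40 at P30 (-1.58 ± 0.61 log2 units, SE, limma adjusted p = 0.667).

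The largest fitted increase was in Trac, the constant segment of the T-cell receptor alpha chain (ENSMUSG00000076928, chromosome 14, 54220521 to 54224206). Its values were 11.1, 39.4 and 18.5 at P60 and 0.114, 0 and 0.334 at P30. The change was 4.21 ± 0.63 log2 units (SE, limma adjusted p = 0.00331) and passed in all 6 fits that left out a library. In the fit of the 6 libraries alone its adjusted p was 0.245, and without P60 library 3 and P30 library 1 together it was 0.101. The genes of the T-cell receptor complex Cd3e, Cd3d and Cd3g and the coreceptor Cd8a had no read in any of the 6 libraries. Cd4 had 0.630, 0 and 1.59 at P60 and 0, 0.510 and 0 at P30. Of the 16 lymphocyte and neutrophil genes, 5 were tested and Trac alone passed. In the VTA libraries Trac had 8.73, 2.23 and 2.34 at P60 and 5.41, 1.80 and 0 at P30.

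The other increases that passed were in Tinagl1, Rab33a, Bfsp2 and 0610043K17Rik. Tinagl1, a matricellular protein (ENSMUSG00000028776, chromosome 4, 130164454 to 130175122), had 14.02, 8.95 and 20.1 at P60 and 0, 1.98 and 2.65 at P30, a change of 2.73 ± 0.51 log2 units (SE, limma adjusted p = 0.0387). Rab33a, a small GTPase of vesicle traffic (ENSMUSG00000031104, chromosome X, 48519285 to 48530232), had 4.04, 17.2 and 5.30 at P60 and 0, 0.187 and 0 at P30, a change of 2.98 ± 0.58 log2 units (SE, limma adjusted p = 0.0456). P60 library 3, one of the libraries with few detected genes, was the highest of the 6 for Rab33a. Bfsp2, a filament protein known from the lens (ENSMUSG00000032556, chromosome 9, 103424924 to 103480420), had 4.73, 15.6 and 15.4 at P60 and no read at P30. Its P60 mean of 11.9 ± 6.22 (SD, n = 3) was at least 62.3-fold higher than 3 reads in each P30 library (limma adjusted p = 0.0399). The long non-coding RNA 0610043K17Rik had 4.36, 4.07 and 5.35 at P60 and no read at P30, at least 10.9-fold higher by the same floor (limma adjusted p = 0.0437). Bfsp2 and Rab33a were each called in 1 of 6 fits that left out a library, Tinagl1 in 3 and 0610043K17Rik in none. In the fit of the 6 libraries alone, 0610043K17Rik passed with an adjusted p of 0.0392. The adjusted p in that fit was 0.452 for Tinagl1, 0.345 for Rab33a and 0.273 for Bfsp2, none of which passed. Antisense transcripts are annotated within Bfsp2, and reads of the 2 strands cannot be told apart.

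The 5 transcripts that fell are named for their small number, after their values were seen. Gm23935, annotated as a microRNA of 57 bases inside Zc3h7a, had no read in any P60 library and 246, 156 and 319 at P30 (limma adjusted p = 0.00310). Gm24270, another such annotation of 57 bases inside Peak1, had no read at P60 and 33.8, 32.2 and 45.6 at P30 (limma adjusted p = 0.000480). Gm29508, annotated antisense to Fam181a, had no read at P60 and 13.8, 9.92 and 16.3 at P30 (limma adjusted p = 3.2e-05). Against 3 reads in each P60 library, these P60 values were at least 44.9-fold, 6.95-fold and 34.9-fold lower. All 3 were called in each of the 6 fits that left out a library, and also in the fit of the 6 libraries alone, with an adjusted p of 0.0191 for Gm23935, 0.0126 for Gm24270 and 0.0392 for Gm29508. Both microRNA annotations are shorter than the 150-base reads that were counted on them.

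The P30 libraries of another region shared these transcripts. In NAc Gm23935 had no read in the 3 P60 libraries and 32.8, 87.8 and 47.4 in the 3 P30 libraries. Gm29508 likewise had no read in NAc at P60 and 8.15, 9.16 and 6.79 in NAc at P30. In VTA, Gm23935 had 0, 1.59 and 0 at P60 and 36.5, 325 and 0 at P30. Gm29508 had no read in VTA at P60 and 1.93, 0.756 and 0 in VTA at P30. Gm24270 had no read in NAc at P60 and 3.45, 72.7 and 26.3 in NAc at P30. In VTA, Gm24270 had no read at P60 and 1.59, 6.33 and 0 at P30. In SNc and NAc, Gm23935, Gm24270 and Gm29508 thus had reads in every library of the P30 pool and none in the P60 pool. Pool and age cannot be told apart. The small nucleolar RNA Snord118 had 9.79, 0 and 0 at P60 and 30.9, 38.4 and 40.8 at P30 in SNc (limma adjusted p = 0.0372). In NAc it had no read at P60 and 8.01, 0 and 5.56 at P30. It ran the other way in VTA, with 11.3, 3.36 and 12.8 at P60 and no read at P30. Gm13339, a pseudogene inside Myo3a, had 0.996, 0.946 and 1.03 at P60 and 15.9, 6.57 and 19.2 at P30 in SNc (limma adjusted p = 0.04996). In NAc it had 0.886, 1.95 and 3.36 at P60 and 6.36, 8.97 and 5.30 at P30. In VTA it had 0.449, 0.891 and 0.767 at P60 and 9.75, 13.4 and 1.32 at P30. Snord118 and Gm13339 were each called in 1 of 6 fits that left out a library, and neither in the fit of the 6 libraries alone (adjusted p = 0.534 and 0.308).

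Over the 3 ages the myelin genes in SNc had their lowest level at P7. The mean of Mbp was 7.31 ± 2.27 at P7, 214 ± 95.6 at P30 and 1785 ± 422 at P60 (SD, n = 3 each). Mobp averaged 0.691 ± 0.840 at P7, 12.5 ± 9.58 at P30 and 166 ± 48.4 at P60 (SD, n = 3 each). Bcas1 averaged 0.979 ± 0.469 at P7, 1.00 ± 1.64 at P30 and 27.4 ± 6.44 at P60 (SD, n = 3 each), so its P7 and P30 levels did not differ beyond their spread. Mag averaged 2.61 ± 0.99 at P7, 82.9 ± 63.5 at P30 and 75.2 ± 30.9 at P60 (SD, n = 3 each), and its P30 and P60 levels overlapped. Thus Mbp and Mobp were higher at each later age, Bcas1 at P60 alone, and Mag had overlapping levels at P30 and P60 that were above those at P7. H2-Aa and Ttr were highest at P30, and Asns had reads at P7 and P60 but not at P30. These levels at P7 are given without a test.

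**Figure D3:**
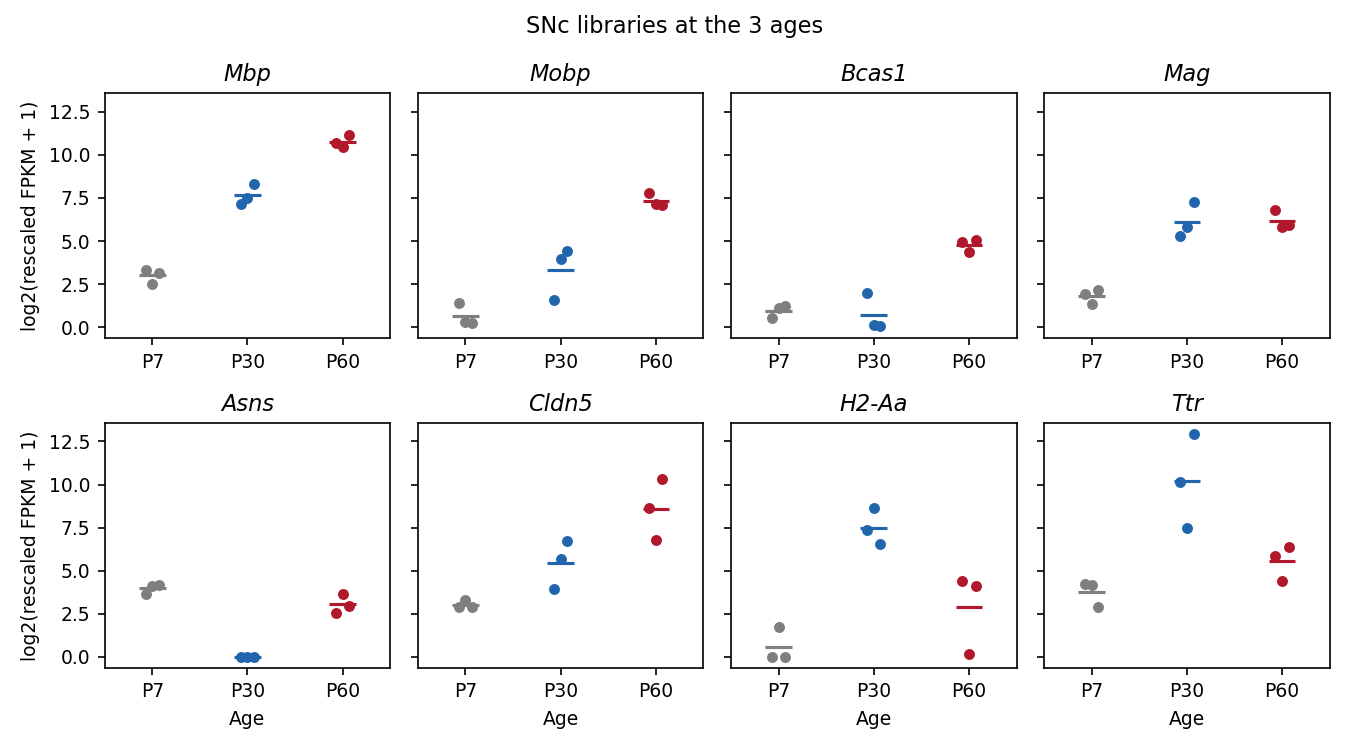
Levels of 8 genes in the sorted SNc libraries at P7 (grey), P30 (blue) and P60 (red), on a vertical axis of log2(rescaled FPKM + 1) shared by the panels. Each point is a library, 3 per age, and each bar their mean. Mbp was higher at each later age, Mag overlapped between P30 and P60, and Asns had no read in the P30 libraries.

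None of the 16 endothelial genes passed the threshold, though all 16 estimates were above 0, with a median of 1.87 log2 units. At an unadjusted limma p under 0.05, 8 of them were higher (3.82% of all genes tested) and none lower (2.20%). For 5 of the 16, every P60 library lay above every P30 library (5.86% of all genes tested), and for none below (4.02%). Cldn5, the claudin of the blood-brain barrier, had 396, 108 and 1283 at P60 and 14.5, 49.7 and 102 at P30, a difference of 3.14 ± 1.10 log2 units (SE, limma adjusted p = 0.555). The groups did not overlap, but P60 libraries differed more than 10-fold among themselves. Slco1a4, an organic anion transporter of brain capillaries, had 9.90, 1.84 and 20.4 at P60 and 0, 0.506 and 2.19 at P30, with overlap between P60 library 3 and P30 library 3. Ly6c1, a surface protein of brain endothelium, had 123, 16.8 and 217 at P60 and 0.574, 19.2 and 40.4 at P30, overlapping in the same P60 library. Without P30 library 1 the endothelial median was 1.03, without P60 library 3 and P30 library 1 together 1.34, and with voom 2.96. In P30 library 1 the median log2 level of the list was 0.23, against 3.79 and 4.17 in the other P30 libraries. Of 11 tested mural and fibroblast genes none passed, with 6 estimates above 0, 5 below and a median of 0.30. Pdgfrb, a receptor of pericytes, had 1.69, 0 and 3.22 at P60 and 5.88, 5.25 and 11.3 at P30 (limma adjusted p = 0.597).

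Genes of class II antigen presentation, by which macrophages show peptides to CD4 T cells, had lower estimates at P60 in 6 of 6 tested members, with a median of -2.48 log2 units, and none passed. H2-Aa, the alpha chain of the class II dimer, had 19.7, 0.129 and 16.3 at P60 and 161, 395 and 91.8 at P30 (-4.62 ± 1.42 log2 units, SE, limma adjusted p = 0.452). H2-Ab1, the beta chain, had 47.4, 0.0977 and 87.8 at P60 and 218, 699 and 132 at P30 (limma adjusted p = 0.670). Cd74, the invariant chain that guides class II molecules, had 264, 339 and 321 at P60 and 2405, 3440 and 818 at P30 (limma adjusted p = 0.919). Of the 6 tested members, these 3 genes had every P60 library below every P30 library (4.02% of all genes tested). Ciita, the transcriptional master regulator of this pathway, had no read except a value of 0.238 in P30 library 2. H2-DMa and H2-DMb1, which load peptides, overlapped between the ages. None of the 16 microglia and macrophage genes passed, and their median was 0.04 log2 units. The median of the 12 homeostatic microglia genes was also 0.04. C1qc, another C1q subunit, had 1992, 4088 and 2856 at P60 and 6431, 6216 and 5343 at P30, without overlap (limma adjusted p = 0.692).

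All 9 ependymal and choroid plexus genes had estimates below 0 with a median of -1.57 log2 units, and none passed. Ttr, transthyretin, the carrier protein that the choroid plexus secretes, had 57.3, 19.9 and 82.9 at P60 and 1135, 176 and 7765 at P30 (-4.63 ± 1.06 log2 units, SE, limma adjusted p = 0.126). Kcnj13, a potassium channel of that epithelium, had 1.28, 0 and 0 at P60 and 1.52, 0 and 22.8 at P30, where P30 library 3 was again the highest. Summed over the list, P30 library 3 had 7834, against 1272 and 251 in the other P30 libraries and 54.1 to 97.8 at P60. The list median was -1.01 without P60 library 1 and -3.25 with voom. Of 6 tested red blood cell genes none passed, with 5 estimates below 0, 1 above and a median of -1.67 log2 units, which was -1.05 without P30 library 3. Hbb-bs, a beta globin, had 4.76, 1.99 and 2.17 at P60 and 28.8, 39.0 and 78.6 at P30 (-3.59 ± 0.89 log2 units, SE, limma adjusted p = 0.233).

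The median of the 16 pan-neuronal genes lay at the 64.0 to 72.8 percentile of genes tested at P60 and at 56.6 to 66.7 at P30, above the dopaminergic list. Of 11 tested dopaminergic genes none passed, and the median difference was 0.37 log2 units. With voom on the recovered reads, where the median of all genes was 0.39, that of the list was 3.61 and 1 member was called. Ddc had 8.41, 6.88 and 8.94 at P60 and 0, 1.21 and 0 at P30. Its groups did not overlap, and the difference of 2.79 ± 0.63 log2 units was short of the threshold (SE, limma adjusted p = 0.118). It passed with voom (adjusted p = 0.0424) and with quantile normalization (0.0305), and its adjusted p over all alternatives ran up to 0.554. Slc18a2 had 2.75, 0 and 0.300 at P60 and 0.309, 0.739 and 0 at P30, with overlap (limma adjusted p = 1.00). Nr4a2, the transcription factor that dopaminergic neurons need to form, had 1.00, 0.0990 and 4.49 at P60 and 0.211, 0 and 0.179 at P30, with overlap (limma adjusted p = 0.916). Slc6a3 differed by 1.08 log2 units (limma adjusted p = 0.997) and Th by 1.87 (limma adjusted p = 0.853). Of 16 pan-neuronal genes none passed, with a median of 0.57. Snap25, a protein of vesicle fusion, had 13.98, 10.7 and 18.6 at P60 and 10.2, 5.81 and 11.6 at P30, with overlap. Of 12 tested GABAergic genes none passed. Sst, somatostatin, had 3.10, 8.81 and 5.47 at P60 and no read at P30 (limma adjusted p = 0.597).

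The median of the 16 astrocyte genes was -0.36 log2 units and none passed. Their estimates were below 0 in 12 and above 0 in 4. For 4 of the 16, every P60 library lay below every P30 library (4.02% of all genes tested), and for 1 above (5.86%). None had an unadjusted limma p under 0.05. Aqp4, the water channel of astrocyte end-feet, had 102, 47.0 and 195 at P60 and 83.3, 94.1 and 134 at P30, with overlap. Among 19 cholesterol synthesis genes, which oligodendrocytes use for myelin, none passed and the median was -0.53. Of these estimates 15 were below 0 and 4 above. Mvk, mevalonate kinase, was among the 4 and went against the median of its list. It had 17.9, 18.6 and 49.3 at P60 and 0.640, 11.8 and 2.88 at P30 (limma adjusted p = 0.476). Beside the myelin, endothelial, class II, choroid plexus and red blood cell lists, the medians of the other 37 of 42 lists lay between -0.53 and 0.57 log2 units. With voom the same medians spread from -0.71 to 3.61.

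**Figure D4:**
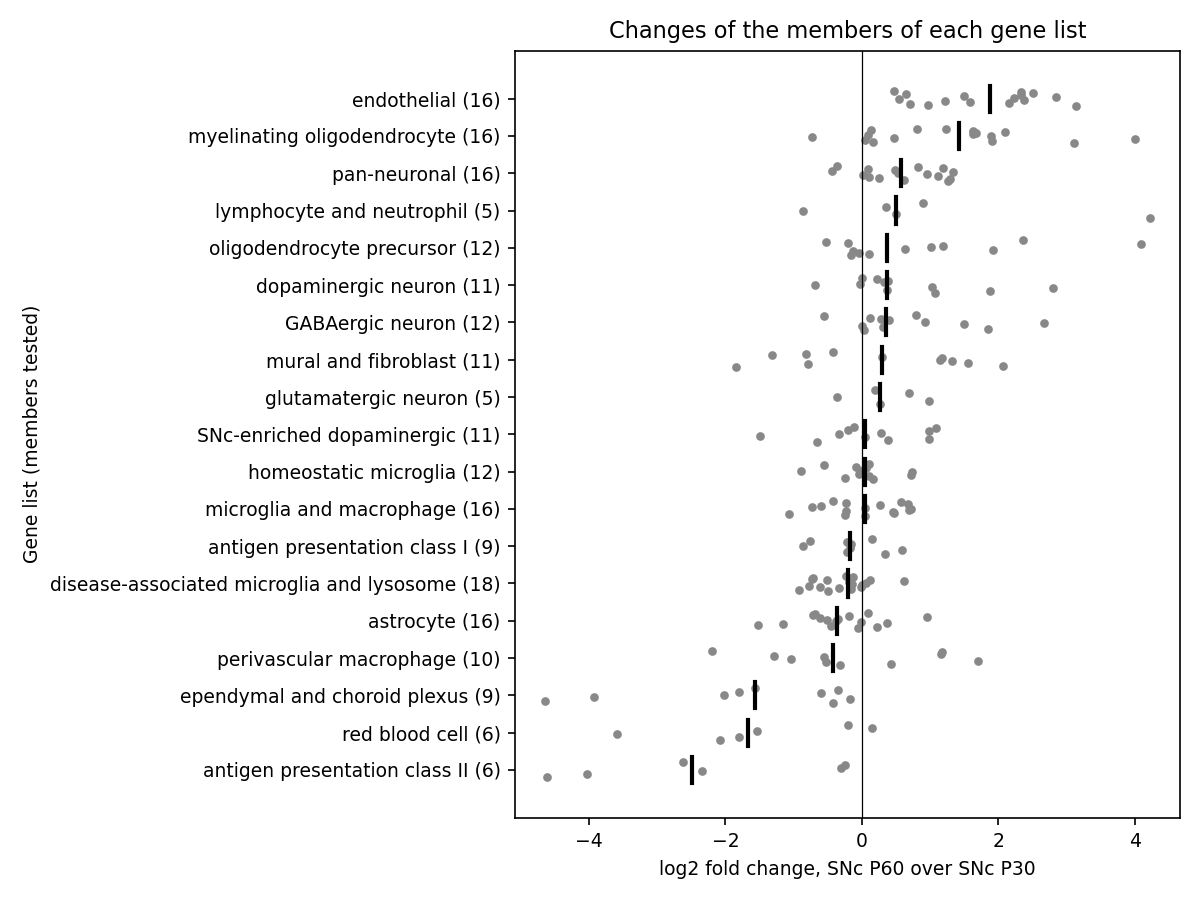
Log2 fold changes of SNc P60 over SNc P30 for the tested members of cell type and antigen presentation lists, on the horizontal axis. Each grey point is a gene and each black bar the median of its list, with the number of members tested in brackets. The endothelial and myelin medians lie at 1.87 and 1.43, the class II median at -2.48 and both microglial medians at 0.04.

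Whether the change with age differed between regions was tested as the SNc change minus the NAc change in the same fit. NAc is a target of dopaminergic axons and its libraries share no sample with those of SNc. Libraries of both regions may come from the same mice, which the fit did not model. The difference passed the threshold in 16 of 18888 genes (0.0847%), positive in 14 (0.0741%) and negative in 2 (0.0106%). The median over all genes was 0.42 log2 units, so these values are to be read relative to that shift. None passed when the 12 libraries of the 4 groups were fitted alone with limma, where 1921 genes had an unadjusted p under 0.05, against 2125 in the fit of all libraries. Detected genes numbered 17117, 11962 and 14707 in the NAc P60 libraries and 17672, 16779 and 17928 in the NAc P30 libraries.

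Ttr had the largest difference. In SNc it was lower at P60, with the values given above, and in NAc it was higher at P60, with 475, 258 and 2192 there and 2.66, 7.27 and 0.369 at P30. The difference was -12.18 ± 1.502 log2 units (SE, limma adjusted p = 0.000445) and passed in all 12 fits that left out a library. Slc13a4, a sulfate transporter of the choroid plexus and meninges, had the same pattern. It had 0.359, 0 and 0 at P60 and 7.86, 2.70 and 5.92 at P30 in SNc, against 8.85, 18.6 and 2.81 at P60 and 0.651, 1.26 and 1.69 at P30 in NAc (-4.53 ± 0.82 log2 units, SE, limma adjusted p = 0.0264). Both genes are thus higher at the later age in NAc and lower at that age in SNc.

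Neu4, a sialidase of oligodendrocyte precursors, ran the other way. It had 12.1, 11.3 and 2.04 at P60 and 0.231, 1.49 and 0.179 at P30 in SNc, against 7.21, 0 and 0 at P60 and 32.4, 26.7 and 18.03 at P30 in NAc (6.05 ± 1.14 log2 units, SE, limma adjusted p = 0.0286). Castor1, the arginine sensor of the mTORC1 pathway, had 10.8, 3.83 and 13.5 at P60 and 2.11, 0.962 and 0 at P30 in SNc, against 1.10, 0 and 0.0572 at P60 and 19.5, 8.72 and 4.67 at P30 in NAc (5.36 ± 1.07 log2 units, SE, limma adjusted p = 0.0472). Trac had 0.0805, 0 and 0 at P60 and 0, 3.97 and 4.01 at P30 in NAc, so its difference was 5.72 ± 0.90 log2 units (SE, limma adjusted p = 0.0125). Bfsp2 had 0.754, 0 and 0 at P60 and 7.12, 6.99 and 0.0884 at P30 in NAc, with a difference of 5.31 ± 0.94 log2 units (SE, limma adjusted p = 0.0260). Of these 6 genes, Ttr and Trac passed in every fit that left out a library. Neither Mbp nor Mobp was among the 16 genes. In NAc, Mbp had 230, 187 and 196 at P60 and 35.5, 29.5 and 38.6 at P30. Mobp had 47.7, 37.5 and 43.4 at P60 and 1.08, 6.68 and 5.72 at P30 there, so both were higher at P60 in NAc too, without overlap. Bcas1 had 6.76, 15.5 and 3.08 at P60 and 9.30, 3.07 and 2.15 at P30 in NAc, with overlap.

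**Figure D5:**
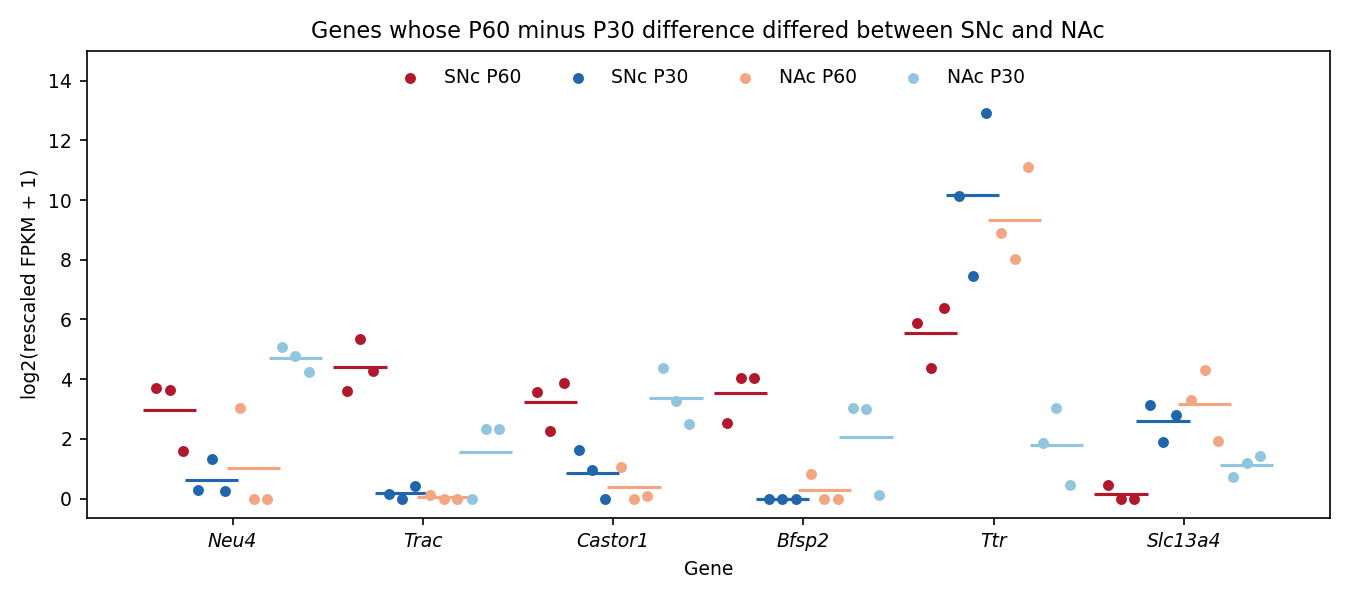
The 6 named genes whose change with age differed between SNc and NAc, on a vertical axis of log2(rescaled FPKM + 1). Each point is a library, 3 per group, and each bar their mean, with SNc P60 and P30 in dark red and dark blue and NAc P60 and P30 in light red and light blue. Ttr and Slc13a4 are lower at P60 in SNc and higher at P60 in NAc, and the means of the other 4 genes show the opposite.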

How the data were processed

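Reads were aligned with HISAT2 to GRCm38/mm10, per the submitters' processing notes. The counter is not given in the sources used here. FPKM, as the authors deposited them, were read for 54532 genes in 26 libraries. The deposited values of VTA P30 replicate 3 are a score proportional to FPKM with another divisor. The deposited gene length is in another unit, bases. Each library was divided by its sum of FPKM times length in kilobases. Whole reads came back for 100% of values, tested where they were below 1000 reads (tolerance 0.02). Symbols were taken by gene ID for 54409 IDs, after restoring the letter M that the table lacks, and names in the table were not used because they are shifted against the IDs after the first 443 matches.

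Genes with a value of at least 1 in at least 3 of 27 libraries were kept, 18888 in all. limma 3.58.1 in R 4.3.3 (lmFit, eBayes with trend and robust, statmod 1.5.0) modelled log2(value + 1) over all libraries, each group having its own term, with Benjamini-Hochberg adjustment. Fold changes on this scale understate low genes. On simulated data the fit recovered large changes but called more unchanged genes than its threshold allows, so its adjusted p-values may be too small. For SNc P60 against P30, the adjusted p in the fit of the 6 libraries alone is given with each call. For the difference between regions, the limma adjusted p in the fit of the 12 libraries alone was 0.110 for Ttr. It was 0.228 for Trac and Castor1, and 0.229 for Neu4, Bfsp2 and Slc13a4. Python 3.11.15 with numpy 2.4.6, pandas 2.3.3 and matplotlib 3.10.9 did the rest.

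Genes were named by a rule: called genes with groups that do not overlap, a mean of at least 5 and an established symbol, up to 12 per direction (up to 4 for the difference between regions), with Slc6a3, Th, Slc18a2, Ddc and Nr4a2 always. Other members of lists and the motifs were picked after values were seen. The members, the 42 lists and the tests were chosen with earlier results of these data known. Promoter sequences are from RefSeq (GRCm38.p6), with entries for 5 of the 8 genes named as called. Alternatives were other filters, a pseudocount of 0.1, the deposited scale, quantile normalization, voom, no trend, a replicate block, and fits without libraries.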

Additional observations from a re-analysis of the deposited data

Results flagged for a closer look

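The test of the difference between regions marked 6 named genes whose P60 minus P30 change in SNc differed from that in NAc (limma, SNc change minus NAc change in log2 units). It was positive for Neu4 (6.05), Trac (5.72), Castor1 (5.36) and Bfsp2 (5.31). It was negative for Ttr (-12.18) and Slc13a4 (-4.53). None of the 6 passed when the 12 compared libraries were fitted alone, where limma called 0 genes and 1921 had an unadjusted p under 0.05, against 16 called and 2125 in the fit of all 27 libraries. In NAc the share of reads in mitochondrial genes was 20.3%, 18.5% and 22.8% at P60 and 8.14%, 7.32% and 6.05% at P30. Its part in these differences was not tested.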

How the results depend on the processing

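The 14 calls kept their direction in every alternative that tested them, but none of the 8 named genes passed the threshold in all of them. For SNc P60 against P30, 9 genes were called higher and 5 lower. With no filter on low values there were 5 and 3, with a pseudocount of 0.1 there were 3 and 3, with the compared libraries alone 2 and 3, and with voom on recovered reads 95 and 41, where the median of all genes stood at 0.39 against 0.06. Of the 136 voom calls, 10 were among the 14. Quantile normalization gave 13 and 9, and leaving out the VTA P30 library that stands apart gave 14 and 9. Without P60 library 3 and P30 library 1, 6 were higher and 3 lower, 3 of these 9 among the 14. Leaving out 1 SNc library at a time gave 2 (without P30 library 1) to 15 (without P60 library 3) higher and 3 (without P60 library 3 or 4) to 16 (without P30 library 2) lower.

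For the difference between regions, 14 were positive and 2 negative. A filter at 5 gave 6 positive and the deposited scale also 6, the compared libraries alone 0 and 0, voom 232 and 48, quantile normalization 16 negative, the filter within SNc 4 negative, the fit without both SNc libraries 3 positive, and that without the VTA library 78 and 20. Leaving out 1 library at a time gave 1 (without SNc P30 library 3) to 44 (without SNc P60 library 3) positive and 1 to 10 (without SNc P30 library 2) negative.

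Same-numbered SNc libraries of P60 and P30 did not deviate together (Pearson r of -0.06 for number 1 and -0.01 for number 3). Libraries of different ages come from different mice, so these values cannot show whether same-numbered libraries of an age share a mouse. That was not tested. With the replicate block 2 genes were higher and 3 lower, all 5 among the 14. Slc18a2, not called, ranged from -0.21 (without P60 library 1) to 0.75 (without P60 library 3) when 1 library was left out. The causes were not tested.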

Other observations

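Some further genes that did not pass the threshold were picked after their values were seen. Penk, Gldc and Tox are in none of the gene lists, while Il1b and Grm3 are. Penk, the precursor of enkephalin peptides, had 15.1, 9.84 and 14.5 at P60 and 0, 1.79 and 0 at P30 in SNc, without overlap (3.31 ± 0.69 log2 units, SE, limma adjusted p = 0.0786). Gldc, the glycine decarboxylase of the glycine cleavage system, had 0.0271, 0.557 and 0.0233 at P60 and 23.6, 3.17 and 5.98 at P30 (-2.92 ± 0.66 log2 units, SE, limma adjusted p = 0.118). Tox, a nuclear protein of the HMG-box family, had 0.107, 1.33 and 0.449 at P60 and 7.35, 4.42 and 15.9 at P30 (-2.56 ± 0.56 log2 units, SE, limma adjusted p = 0.107). The cytokine gene Il1b had 20.4, 0 and 4.32 at P60 and 50.2, 46.1 and 53.6 at P30, again without overlap (-3.39 ± 1.17 log2 units, SE, limma adjusted p = 0.540). Grm3, a metabotropic glutamate receptor, had 6.77, 1.03 and 4.77 at P60 and 36.3, 15.9 and 17.3 at P30 (-2.33 ± 0.71 log2 units, SE, limma adjusted p = 0.452).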
